A study of Arabidopsis thaliana with 12 samples.

Results

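The genes described here are 17 nuclear genes of Arabidopsis thaliana for proteins of the chloroplast. These proteins act in thylakoid complexes or their assembly, edit plastid transcripts or turn over plastid proteins. They were chosen by symbol among 13513 probe sets that name 1 gene in the platform's annotation: 22 symbols began with a name of a photosystem, electron carrier, NDH, assembly, Clp, FtsH or TIC gene family. The rule itself used no measured value, but the choice was made with earlier results of these data known. LHCB4.1, LHCB4.2 and LHCB4.3 were left out by that rule, FDH because it names a mitochondrial formate dehydrogenase, and CLPB2 because it is not known as a plastid protein. The 17 genes are PSAN, PSAE-1 and HCF101 for photosystem I, PSBY and PSBW as subunits of photosystem II, PSB27, LPA19, LPA1, LPA2 and LPA66 for its assembly and repair, CRR21, CRR22, CRR28, CRR41 and CRR42 for the NDH complex, PGRL1B for cyclic electron flow, and CLPP4 for protein turnover. Each stood on 1 probe set, and all 17 passed the filter on dim probe sets. No LHCA, other LHCB, PET, FD, FTSH or TIC gene is among the 17, and those families are not described.

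The samples were the aerial part of 10-day-old wild-type seedlings of the Columbia ecotype, grown on agar that held 1% sucrose, with a day of 16 h light followed by 8 h dark. Total RNA was hybridised to 1-colour Affymetrix arrays at 4 harvest times with 3 replicates each (12pm array 2 is the array of replicate 2 at 12pm): 6am, when lights came on (0 h), 12pm (6 h into the light), 6pm (12 h into the light) and 12am (18 h, in the dark). Nothing in the labels states that replicates were separate cultures, so the p-values measure the spread between these arrays, which may be technical. All groups share the genotype and the sucrose medium, and a CCA1-overexpressing line named in the design text was not analysed here.

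Photosystem II, the cytochrome complex and photosystem I pass electrons along the thylakoid membrane, and each is built from subunits encoded in the plastid together with others that are encoded in the nucleus and imported. Photosystem II is damaged by light and is taken apart and rebuilt with the help of auxiliary proteins in the lumen and membrane. The NDH complex, named for its likeness to NADH dehydrogenase, and the PGR5 and PGRL1 proteins return electrons from photosystem I to the plastoquinone pool. Many nuclear genes for the NDH complex encode pentatricopeptide repeat proteins, which bind plastid transcripts and direct the editing of single bases in them.

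Of the 12 arrays, those of replicate 1 stood apart. On the 4 arrays of replicate 1, 67 plastid-encoded transcripts had a median level of 9.14 to 10.12 log2, against 10.89 to 11.41 for the 8 remaining arrays. The gap between 3' and 5' control probe sets was 5.08 to 6.49 log2 against 4.38 to 5.09 for actin, and it overlapped as well for GAPDH (2.02 to 2.33 against 1.77 to 2.19) and ubiquitin (3.13 to 3.47 against 2.90 to 3.47). Green-tissue genes were present at every time, with 12-array means of 13.38 for RCA, 13.56 for PRK and 13.40 for SBPASE. RCA differed between times (limma F-test, adjusted p = 0.0204) and was lower at 6pm than at 6am by 0.57 on the log2 scale (adjusted p = 0.00642), SBPASE differed as well (0.0479), with a 12am minus 12pm difference of 0.41 (adjusted p = 0.027), and PRK was not called (0.688). The root hair gene EXPA7 read the table's minimum at all 4 times, and the root-associated gene PYK10 averaged 11.64 and was not called between times (limma F-test, adjusted p = 0.207). The guard cell gene FAMA averaged 7.33 and was not called by the F-test (adjusted p = 0.121), though it was lower at 12pm than at 6am (-0.59, adjusted p = 0.0407). The part of these marker differences in the results below was not tested. No epidermis or phloem marker of the lists stood on a named probe set. Because replicate 1 differed, the number of the 17 genes called by the F-test and in each comparison is also given for replicates 2 and 3 alone. The background shares printed below are those of the fit with all 12 arrays. Shares in other settings are not given, so counts in those settings are not read against a background.

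Over the 4 times, 8 of the 17 genes differed by limma's F-test at an adjusted p below 0.05, against 46.8% of all 14185 tested probe sets, so the share of the genes called was close to the background. The 8 were PSBY, PSBW, PSB27, LPA19, CRR22, CRR28, CRR42 and PGRL1B, and with replicates 2 and 3 alone 9 genes were called. The range of the 4 time means had a median of 0.57 log2 over the 17 genes and 0.64 over all tested probe sets. The 17 genes were also brighter, with a median level of 10.77 log2 against 7.97, and the part of level in the ranges was not tested. Only CRR42 had a range of at least 2-fold (1.47 log2, 2.77-fold), a size reached by 27.6% of all tested probe sets. Among the 8 called genes the highest mean was at 12pm for PSBY, PSBW, PSB27 and PGRL1B, at 12am for CRR22 and CRR28, at 6pm for CRR42 and at 6am for LPA19. Some of these peaks were near ties. CRR22 and CRR28 were higher at 12am than at 6pm by only 0.06 and 0.04 log2 (limma adjusted p of 0.859 and 0.92). LPA19 was higher at 6am than at 12am by 0.02 (0.958), and CRR42 at 6pm was not called against 12pm (0.228) or 12am (0.287). Of all called probe sets, 30% had their highest mean at 6am, 27.1% at 12pm, 21.6% at 6pm and 21.3% at 12am. In tissue RNA, fewer cells of a type and less RNA per cell cannot be told apart.

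**Figure D1:**
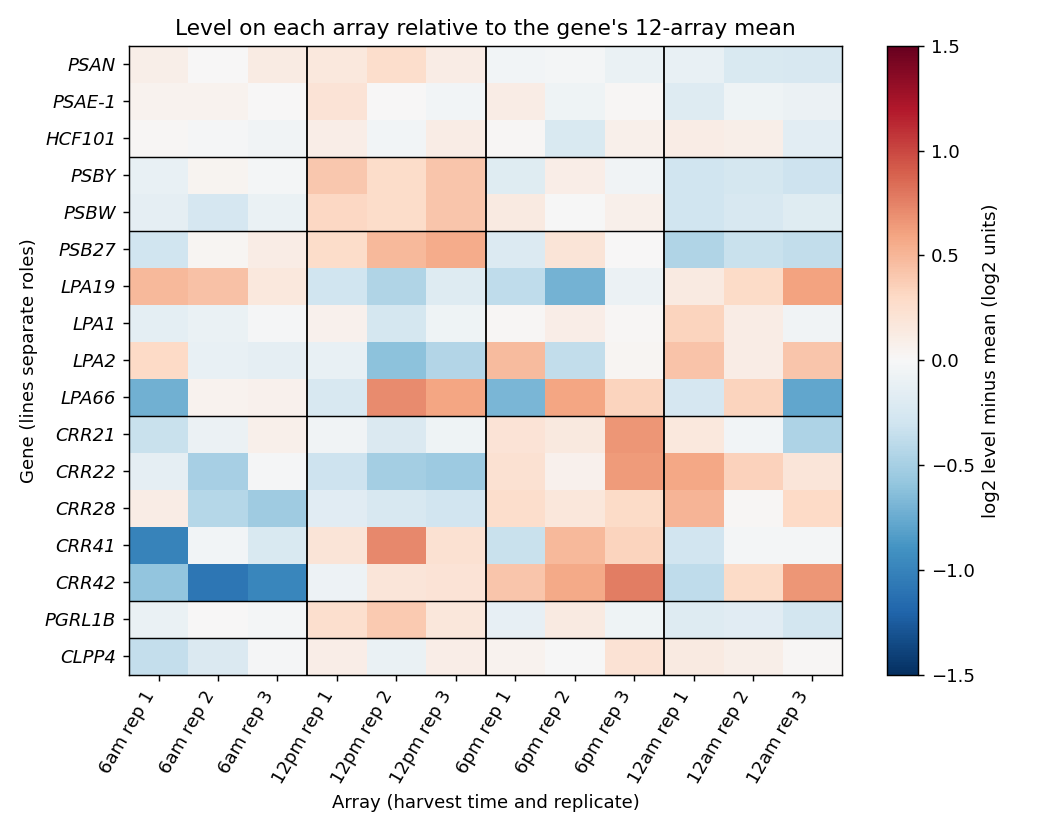
Log2 level of each of the 17 genes on each of the 12 arrays minus that gene's mean over the 12 arrays (columns: harvest time and replicate; rows: genes, with lines between roles). PSBY, PSBW, PSB27 and PGRL1B are above their mean on the 12pm arrays and below it on the 12am arrays, and CRR42 is below its mean on the 6am arrays.

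**Figure D2:**
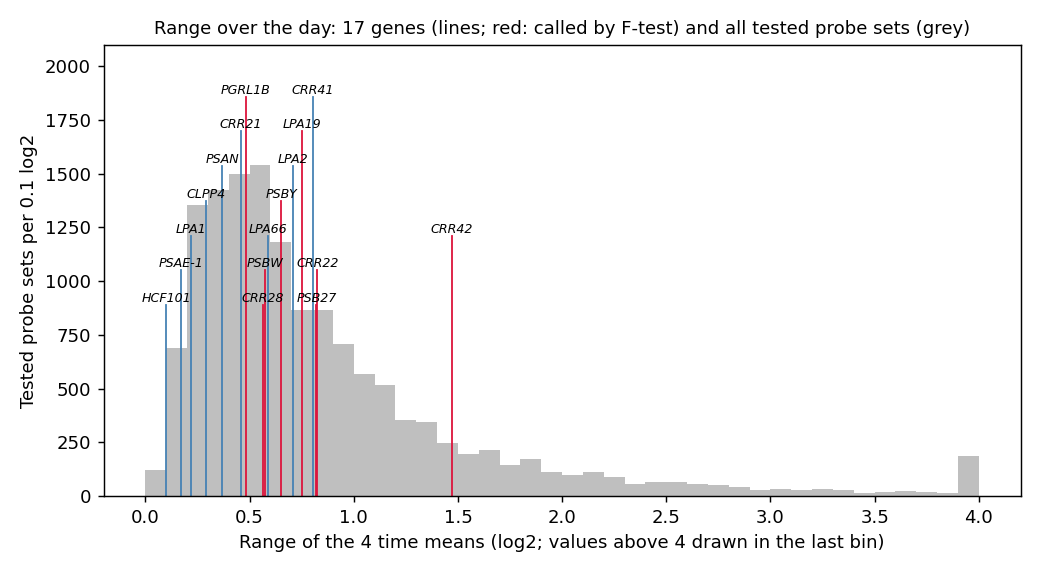
Distribution of the range of the 4 time means (x axis, log2) over all 14185 tested probe sets (grey, number per 0.1 log2), with the 17 genes as lines (red where called by the F-test, blue otherwise). The genes lie between 0.10 (HCF101) and 1.47 (CRR42), with a median of 0.57 against 0.64 for all tested probe sets.

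Of the photosystem I genes, PSAE-1 and HCF101 had the narrowest ranges of the 17 and PSAN was lowest at midnight. PSAN, a subunit on the lumen side where plastocyanin docks, read 14.15, 14.07 and 14.18 log2 at 6am, 14.22, 14.33 and 14.17 at 12pm, 14.02, 14.03 and 13.96 at 6pm, and 13.95, 13.84 and 13.82 at 12am. The 3 arrays at 12am were all below those of every other time. PSAN was lower at 12am than at 12pm by 1.29-fold (difference of -0.37 ± 0.11 log2, SE, limma adjusted p = 0.0239), though the F-test over 4 times did not call it (adjusted p = 0.0568). Its spread between replicates was 0.06 log2 (pooled SD), at percentile 0.4 of all tested probe sets. With dim probe sets kept in, the F-test called PSAN (adjusted p = 0.00347), and further such settings are given in the closing section. The difference between 12am and 12pm lost its call without 12pm array 1 or 2 or 12am array 2 or 3 (adjusted p of 0.0511, 0.0906, 0.079 and 0.0761), after a further quantile normalization (-0.25, adjusted p = 0.113) and in a fit of just those 6 arrays (0.0533). PSAE-1, a subunit on the stroma side near the ferredoxin docking site, had time means from 14.20 at 12am to 14.38 at 12pm (F-test adjusted p = 0.538). HCF101, a scaffold protein that hands iron-sulfur clusters to photosystem I, had means from 12.00 at 6pm to 12.10 at 12pm (adjusted p = 0.894).

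Both small subunits of photosystem II were highest at midday and lowest at midnight. PSBY, a small membrane subunit, read 13.23, 13.39 and 13.32 log2 at 6am, 13.75, 13.62 and 13.76 at 12pm, 13.17, 13.45 and 13.30 at 6pm, and 13.04, 13.09 and 13.04 at 12am. All 3 arrays at 12pm were above those of every other time, and all 3 at 12am were below them. The level at 12am was lower than at 12pm by 1.57-fold (-0.65 ± 0.12, SE, limma adjusted p = 0.00139). From 6am PSBY rose by 0.39 ± 0.12 at 12pm (adjusted p = 0.0209), a call lost with replicates 2 and 3 alone (0.33, adjusted p = 0.0584) and without 6am array 3 or 12pm array 1 or 3 (0.0536, 0.0592 and 0.069).

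PSBW, a small subunit that stabilises photosystem II supercomplexes, followed the same order at its extremes. It read 12.87, 12.76 and 12.90 log2 at 6am, 13.31, 13.29 and 13.42 at 12pm, 13.14, 13.00 and 13.09 at 6pm, and 12.70, 12.76 and 12.82 at 12am. The 12pm arrays lay above all others, the 6pm arrays came next, and those at 6am and 12am overlapped. PSBW was 1.49-fold lower at 12am than at 12pm (-0.57 ± 0.11, adjusted p = 0.00211) and 1.41-fold higher at 12pm than at 6am (0.50 ± 0.11, adjusted p = 0.0045). Both PSBW calls were kept under each of 20 alternatives, with adjusted p of at most 0.0121 for 12am against 12pm and 0.0232 for 12pm against 6am.

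**Figure D3:**
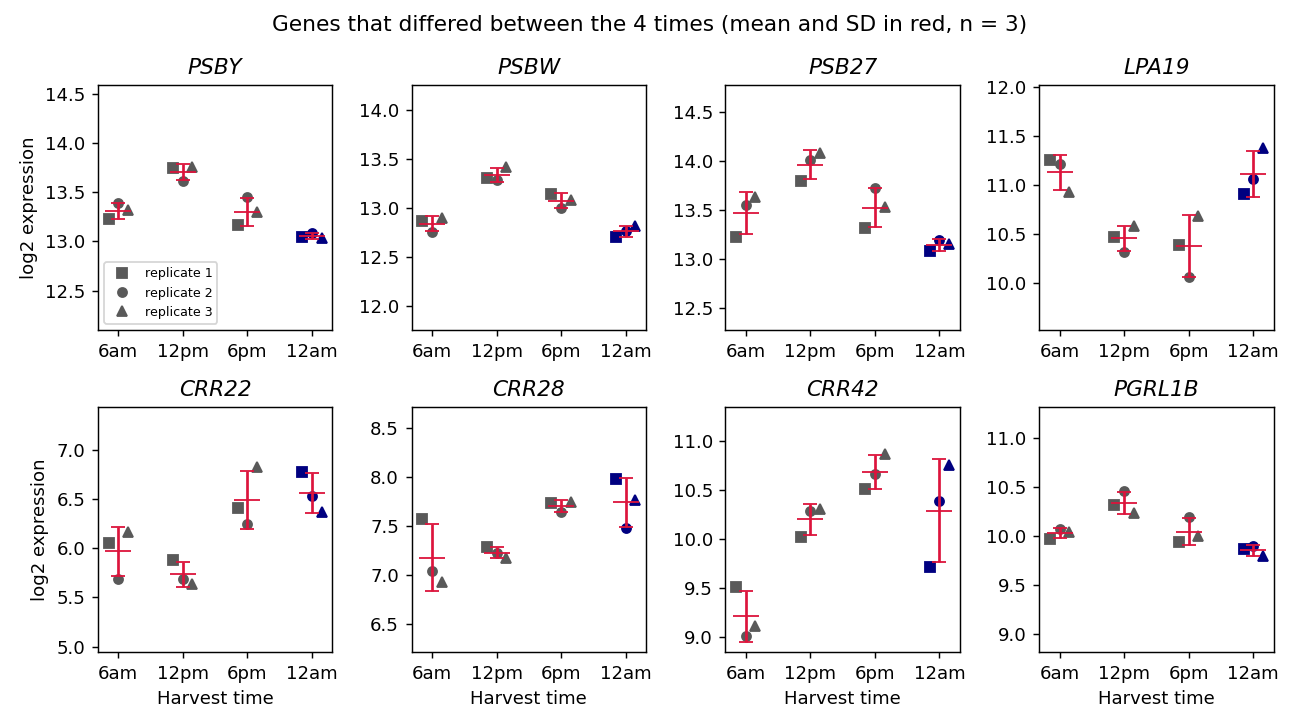
Log2 expression of the 8 genes called by the F-test at the 4 harvest times, with each replicate as a grey symbol (blue at 12am) and the mean and SD of 3 arrays in red; every panel spans the same number of log2 units. PSBY, PSBW, PSB27 and PGRL1B are highest at 12pm, LPA19 is high at 6am and 12am, and CRR42 is lowest at 6am.

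Among the auxiliary proteins of photosystem II, PSB27 and its relative LPA19 had opposite courses between midday and midnight. PSB27, a lumen protein needed for efficient repair after photodamage, read 13.22, 13.55 and 13.63 log2 at 6am, 13.79, 14.01 and 14.08 at 12pm, 13.31, 13.72 and 13.53 at 6pm, and 13.07, 13.19 and 13.15 at 12am. Its 12pm arrays were above all others and its 12am arrays below all others. At 12am PSB27 was 1.77-fold lower than at 12pm (-0.82 ± 0.15, SE, limma adjusted p = 0.00177), and this call was kept under all 20 alternatives, with adjusted p up to 0.0106. Between 12pm and 6am it was higher at 12pm by 0.49 ± 0.15 (adjusted p = 0.0254), a call lost without 6am array 1 (0.0756), 12pm array 2 (0.0777) or 12pm array 3 (0.0915) and in a fit of just those 6 arrays (0.0548). On every time's 3 arrays replicate 1 was the lowest for PSB27.

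LPA19, a PSB27-related protein that takes part in photosystem II assembly, read 11.25, 11.22 and 10.93 log2 at 6am, 10.47, 10.32 and 10.58 at 12pm, 10.39, 10.06 and 10.69 at 6pm, and 10.91, 11.06 and 11.38 at 12am. Every array at 6am and 12am was above every array at 12pm and 6pm. LPA19 was lower at 6pm than at 6am by 1.69-fold (-0.75 ± 0.18, adjusted p = 0.00804) and higher at 12am than at 12pm by 1.58-fold (0.66 ± 0.18, adjusted p = 0.0191). The fall at 6pm kept its call under all 20 alternatives, and the rise at 12am against 12pm was lost without 12pm array 2 (0.0725) or 12am array 3 (0.0819). At 12am it was also higher than at 6pm by 0.73 ± 0.18 (adjusted p = 0.0144), which was lost without 6pm array 2 (0.0543) or 12am array 3 (0.0645) and in a fit of just those 6 arrays (0.055). At 12pm it was lower than at 6am by 0.68 ± 0.18 on the log2 scale (adjusted p = 0.0137), lost without 12pm array 2 (0.0553) and with replicates 2 and 3 alone (0.0575).

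LPA2, a thylakoid protein named for the low photosystem II level of its mutant, read 10.58, 10.17 and 10.15 log2 at 6am, 10.17, 9.67 and 9.84 at 12pm, 10.76, 9.91 and 10.31 at 6pm, and 10.72, 10.39 and 10.70 at 12am. The arrays at 12am were all above those at 12pm, while 6am and 6pm overlapped with both. LPA2 was 1.63-fold higher at 12am than at 12pm (0.71 ± 0.22, SE, limma adjusted p = 0.0331). The F-test over 4 times did not call LPA2 with all 12 arrays and time alone in the model (adjusted p = 0.0956). With replicate number added to that model (the replicate block) the F-test called LPA2 (0.0059). It also did with replicates 2 and 3 alone (0.0246) and without 6pm array 1 (0.048) or 2 (0.042). The difference between 12am and 12pm lost its call without 12pm array 2 or 3 (0.12 and 0.0919), without 12am array 1 or 3 (0.0819 and 0.0997) and when dim probe sets were kept in (0.0783). That difference kept the call with replicates 2 and 3 alone.

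LPA1, a membrane protein that assists the assembly of photosystem II, had time means from 11.91 at 12pm to 12.13 at 12am and was not called (F-test adjusted p = 0.402). LPA66, a pentatricopeptide repeat protein required to edit the plastid transcript psbF, read 8.15, 8.92 and 8.93 log2 at 6am, 8.63, 9.58 and 9.46 at 12pm, 8.19, 9.47 and 9.21 at 6pm, and 8.62, 9.20 and 8.09 at 12am. Replicate 1 was the lowest of 3 at 6am, 12pm and 6pm and lay between the others at 12am. The spread of LPA66 between replicates was 0.56 log2 (pooled SD), wider than in 95.0% of tested probe sets, and no difference between times was called (F-test adjusted p = 0.509).

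Some of the 17 genes read differently on replicate 1 than on the other replicates. Replicate 1 minus the mean of replicates 2 and 3, averaged over the 4 times, was -0.71 log2 for LPA66, -0.53 for CRR41 and -0.26 for PSB27, against 0.41 for LPA2 and 0.27 for CRR28. CRR41 and PSB27 had their lowest array in replicate 1 at all 4 times, and LPA2 had its highest there at all 4 times. The plastid transcript psbF, which LPA66 edits, read 9.47, 10.67, 9.76 and 10.68 on replicate 1 at 6am, 12pm, 6pm and 12am, against 11.30 to 11.76 on the others. This was not particular to psbF: at 6am clpP read 10.34 on replicate 1 against 12.49 and 12.58, and psbA 9.63 against 11.29 and 11.47. The part of the replicate 1 arrays' lower plastid transcripts and 3' to 5' gaps in these values was not tested. Among all tested probe sets ranked by that averaged difference, LPA66 stood at percentile 3.0, CRR41 at 6.7, PSB27 at 21.4, CRR28 at 79.9 and LPA2 at 89.4.

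**Figure D4:**
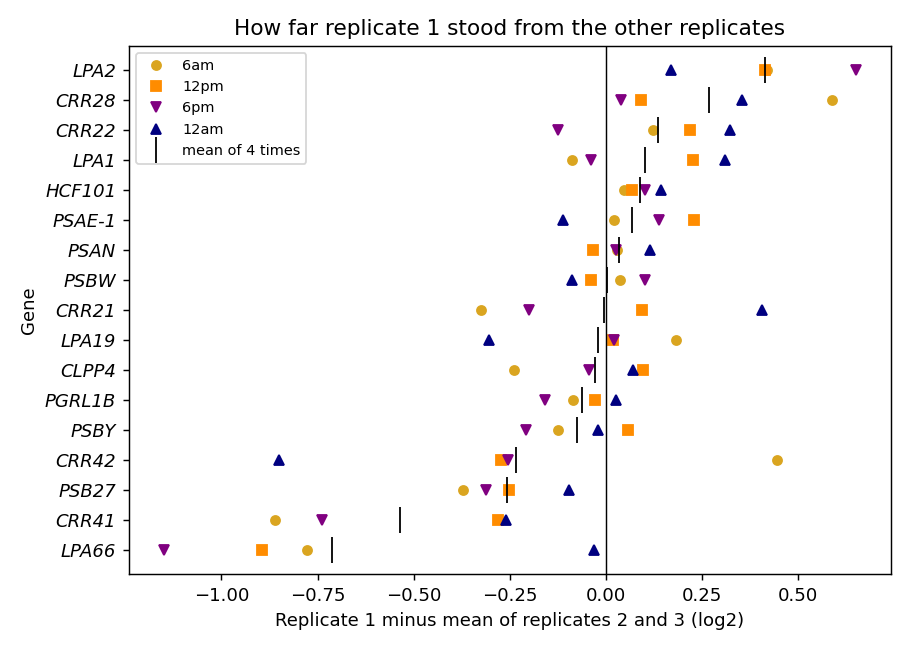
Log2 level on the replicate 1 array minus the mean of replicates 2 and 3 at the same time (x axis), for each of the 17 genes at each of the 4 times (symbols) and averaged over times (bar). LPA66, CRR41 and PSB27 are below 0 at all 4 times, while LPA2, CRR28 and, by 0.05 to 0.14 log2, HCF101 are above 0 at all 4 times.

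The genes for the NDH complex held the widest swing of the 17. CRR42, which helps assemble the stromal part of the complex, read 9.51, 9.01 and 9.11 log2 at 6am, 10.02, 10.28 and 10.30 at 12pm, 10.51, 10.67 and 10.87 at 6pm, and 9.72, 10.38 and 10.76 at 12am. All arrays at 6am were below all arrays of the other times, and the 12am arrays overlapped with those of 12pm and 6pm. CRR42 rose 2.77-fold at 6pm relative to 6am (1.47 ± 0.24, SE, limma adjusted p = 0.000615) and 1.99-fold at 12pm relative to 6am (0.99 ± 0.24, adjusted p = 0.00712). It was 2.11-fold lower at 6am than at 12am (-1.08 ± 0.24, adjusted p = 0.00697), and the difference was -1.36 without 12am array 1 and -1.51 with replicates 2 and 3 alone. These 3 calls were kept under all 20 alternatives, but all 3 use the 6am arrays and are not independent. Its neighbours in order, 12am over 12pm and 6pm over 12am, did not differ beyond their spread (adjusted p of 0.836 and 0.287).

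CRR41, another assembly factor of the stromal part, read 8.06, 9.01 and 8.82 log2 at 6am, 9.25, 9.77 and 9.28 at 12pm, 8.72, 9.53 and 9.38 at 6pm, and 8.76, 9.02 and 9.03 at 12am. All 12pm arrays were above all 6am arrays. CRR41 was higher at 12pm than at 6am by 0.80 ± 0.27 log2 (limma adjusted p = 0.0393), and by 0.52 without 6am array 1, where it was not called (0.13). The call was also lost without 6am array 3 (0.0543), 12pm array 1 (0.051), 12pm array 2 (0.146), 12pm array 3 (0.0641), 12am array 2 (0.053) or 12am array 3 (0.0522), when dim probe sets were kept in (0.102) and in a fit of just the 6 arrays (0.0633). With replicates 2 and 3 alone the difference between 12pm and 6am kept its call (0.61, limma adjusted p = 0.023). In that setting the F-test called CRR41 as well (adjusted p = 0.0328). With all 12 arrays the F-test gave an adjusted p of 0.108 without the replicate block and 0.0071 with it.

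CRR22 and CRR28, pentatricopeptide repeat proteins that direct RNA editing of plastid ndh transcripts, were higher at 6pm and 12am than at 6am and 12pm in their means. CRR22 read 6.05, 5.69 and 6.17 log2 at 6am, 5.88, 5.68 and 5.64 at 12pm, 6.42, 6.25 and 6.83 at 6pm, and 6.78, 6.54 and 6.37 at 12am. Every array at 6pm and 12am was above every array at 6am and 12pm. CRR22 was 1.77-fold higher at 12am than at 12pm (0.83 ± 0.18, SE, limma adjusted p = 0.0059), a call kept under all 20 alternatives with adjusted p up to 0.0266. It was 1.70-fold higher at 6pm than at 12pm (adjusted p = 0.017), lost without 12pm array 2 (0.062), 12pm array 3 (0.0658) or 6pm array 3 (0.0691). The higher level at 6pm than at 6am (0.52 ± 0.18, adjusted p = 0.0478) was lost under 14 of 20 alternatives, among them the omission of any array but 6am array 3, 6pm array 2 or 12am array 1, with 0.18 at most. The lower level at 6am than at 12am (-0.59 ± 0.18, adjusted p = 0.0388) was lost under 10, among them without 6am array 1 or 2, 12pm array 2 or 3, or 12am array 1 or 2, with 0.14 at most.

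CRR28 read 7.57, 7.04 and 6.92 log2 at 6am, 7.29, 7.22 and 7.17 at 12pm, 7.73, 7.64 and 7.74 at 6pm, and 7.98, 7.48 and 7.76 at 12am. Every array at 6pm was above every array at 6am and 12pm, and 6am array 1 lay above 12am array 2. CRR28 was higher at 6pm than at 6am by 0.53 ± 0.18 (limma adjusted p = 0.04) and lower at 6am than at 12am by 0.56 ± 0.18 (adjusted p = 0.0396). With replicates 2 and 3 alone both were kept (6pm minus 6am 0.71, adjusted p = 0.00392, and 6am minus 12am -0.64, adjusted p = 0.00744). These calls were lost under 11 and 10 of 20 alternatives. For 6pm against 6am these included the omission of any array but 6am array 1, 12am array 1 or 12am array 2 (0.149 at most), and for 6am against 12am that of any array but 6am array 1, 6pm array 1 or 2, or 12am array 2 (0.14 at most). Between 12am and 12pm CRR28 differed by 0.51 ± 0.18 with an adjusted p of 0.0501, which was below 0.05 without 6am array 1 (0.0137), 6am array 3 (0.0471) or 12am array 2 (0.0349) and with replicates 2 and 3 alone (0.0391).

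CRR21, a pentatricopeptide repeat protein required to edit ndhD, had time means of 8.75, 8.76, 9.21 and 8.76 log2 at 6am, 12pm, 6pm and 12am and was not called by the F-test (adjusted p = 0.141). The plastid transcript ndhD read 9.91, 10.12, 10.38 and 11.12 on replicate 1 at the same 4 times, against 10.98 to 11.69 on the other replicates, and was not called between times (limma F-test, adjusted p = 0.603). Array levels of a transcript do not show how much of it is edited.

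PGRL1B, which encodes a thylakoid membrane partner of PGR5 in cyclic electron flow, had the course of the photosystem II subunits at its extremes. It read 9.97, 10.07 and 10.04 log2 at 6am, 10.32, 10.45 and 10.23 at 12pm, 9.94, 10.20 and 9.99 at 6pm, and 9.87, 9.90 and 9.79 at 12am. The 12pm arrays were above all others and the 12am arrays below all others. PGRL1B was 1.40-fold lower at 12am than at 12pm (-0.48 ± 0.12, SE, limma adjusted p = 0.00982), a call kept under all 20 alternatives with adjusted p up to 0.0464. Its F-test over 4 times (adjusted p = 0.0296) was not called without 12pm array 1 (0.0724), 12pm array 2 (0.117), 12am array 2 (0.061) or 12am array 3 (0.0754), or with replicates 2 and 3 alone (0.0601).

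CLPP4, a subunit of the proteolytic core of the plastid Clp protease, read 11.27, 11.41 and 11.61 log2 at 6am, 11.73, 11.53 and 11.74 at 12pm, 11.69, 11.63 and 11.85 at 6pm, and 11.76, 11.73 and 11.66 at 12am. The 6am arrays were all below those of 6pm and 12am and overlapped with those of 12pm. None of its 6 differences between times was called, and the F-test gave an adjusted p of 0.202.

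Between 12am and 12pm, 8 of the 17 genes were called, against 28.1% of all tested probe sets. PSAN, PSBY, PSBW, PSB27 and PGRL1B were lower at 12am (5 genes, background 14.2%), and LPA19, LPA2 and CRR22 were higher (3 genes, background 13.9%). The median difference was -0.04 log2 over the 17 genes and 0.02 over all tested probe sets, and with replicates 2 and 3 alone 9 genes were called. Omitting 12pm array 2 or 12am array 3 left 5 calls.

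Between 12pm and 6am, 6 genes were called against 34.4% of all tested probe sets. PSBY, PSBW, PSB27, CRR41 and CRR42 were higher at 12pm (5 genes, background 17.3%) and LPA19 was lower (1 gene, background 17.1%), with a median of 0.10 against -0.02 over all. With replicates 2 and 3 alone 4 genes were called, all higher. Omitting 12pm array 2 or 12pm array 3 left 3 calls. The 12pm arrays enter both this comparison and that of 12am with 12pm, so the PSBY, PSBW and PSB27 calls in them are not independent.

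Between 6pm and 6am, 4 genes were called against 32.4% of all tested probe sets, with CRR22, CRR28 and CRR42 higher (3 genes, background 16.7%) and LPA19 lower (1 gene, background 15.7%) at 6pm. The median difference was 0.14 against 0.01 over all. Replicates 2 and 3 alone also gave 4 calls, but with CRR41 (0.54, limma adjusted p = 0.0382) in place of CRR22 (0.61, adjusted p = 0.059). Leaving out 6am array 2, 12pm array 1, 2 or 3, 6pm array 3 or 12am array 3 left 2 calls. PSBY and PSB27 differed by -0.01 ± 0.12 and 0.06 ± 0.15 log2 between these times (SE, adjusted p of 0.966 and 0.817).

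**Figure D5:**
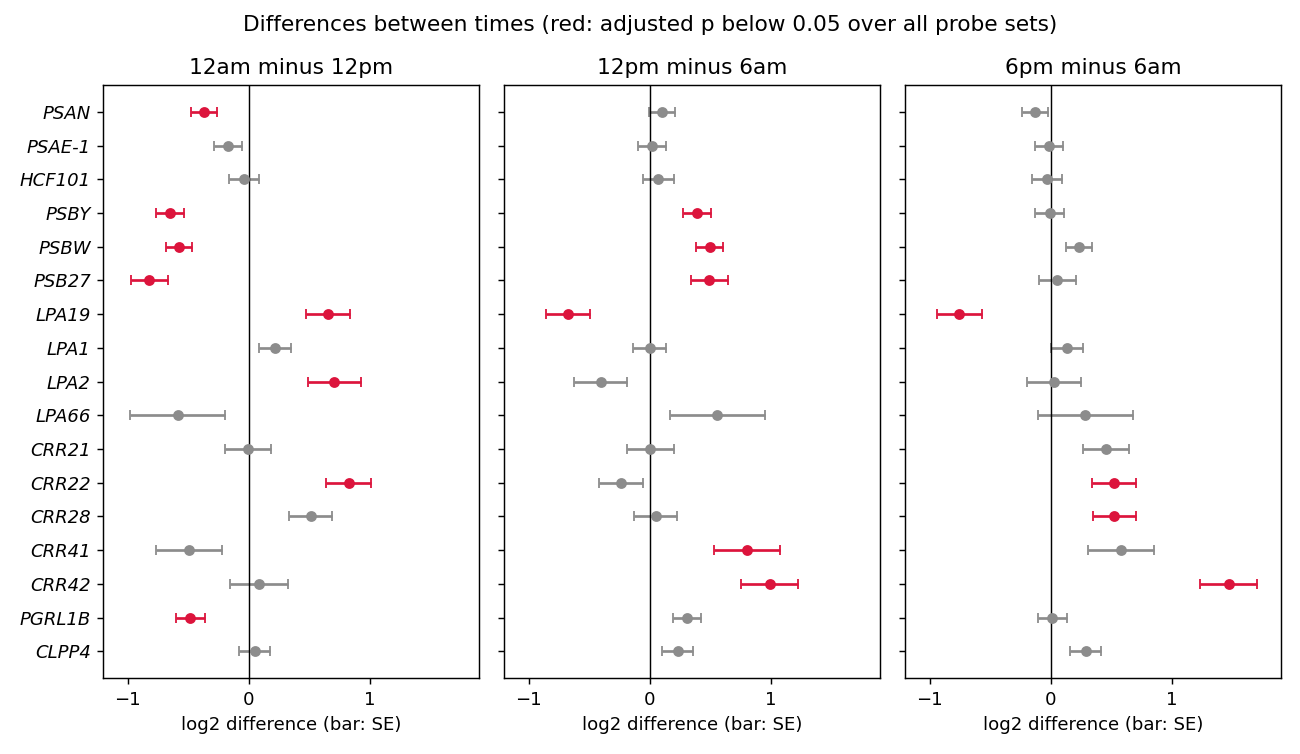
Difference of time means for each of the 17 genes (x axis, log2; bars, SE of the limma model) for 12am minus 12pm, 12pm minus 6am and 6pm minus 6am, with adjusted p below 0.05 over all tested probe sets in red. In the left panel 5 genes are called lower and 3 higher at 12am, in the middle panel 5 higher and 1 lower at 12pm, and in the right panel 3 higher and 1 lower at 6pm.

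The other steps called fewer of the 17 genes. Between 6pm and 12pm PSBY was lower by 0.40 on the log2 scale (adjusted p = 0.0392) and CRR22 was higher (2 genes, background 14.3%, of which 7.89% lower and 6.38% higher). Replicates 2 and 3 alone called 3, PSB27 as lower and CRR22 and CRR28 as higher, and did not call PSBY (limma adjusted p = 0.115). The PSBY call was lost under 11 of 20 alternatives, including without 12pm array 1, 2 or 3, 6pm array 1 or 3, 6am array 2 or 3, or 12am array 2 or 3, with an adjusted p of 0.136 at most. The count of 2 was 4 without 6am array 1, 1 without 6am array 2 or 3, 12pm array 1, 6pm array 1 or 12am array 2 or 3, and 0 without 12pm array 2 or 3 or 6pm array 3, where limma's unadjusted p was below 0.05 for 5, 3 and 3 genes.

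Between 12am and 6pm only LPA19 was called (1 gene, higher, background 9.95% higher and 19.9% in either direction). By replicates 2 and 3 alone 3 were called: LPA19 as higher, and PSB27 and CRR21 as lower. Without 6pm array 2 or 12am array 3 limma called 0, with 3 genes at an unadjusted p below 0.05 in each case. Between 6am and 12am CRR22, CRR28 and CRR42 were lower at 6am (3 genes, background 12.5% lower and 23.7% in either direction). Replicates 2 and 3 alone also called 3, but not the same 3. CRR28 and CRR42 kept their calls, CRR22 lost its call (-0.52, limma adjusted p = 0.0999), and PSB27 was called higher at 6am (0.42, adjusted p = 0.0288). The count of 3 with all 12 arrays was 1 without 6am array 2, 12pm array 2, 12pm array 3 or 12am array 1. The 6am arrays also enter the comparison of 6pm with 6am, so the CRR22, CRR28 and CRR42 calls in both are not independent.

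Of 64 other genes listed for the same pathways, 10 stood on a named and tested probe set, and 5 of these were called by the F-test, near the 46.8% of all tested probe sets. LHCB4.1, LHCB4.2 and LHCB4.3, left out of the 17, are 3 of the 10. By limma, 4 were higher and 1 lower at 6pm than at 6am, 1 higher and 3 lower at 12am than at 12pm, and 4 higher and 0 lower at 12pm than at 6am (6 and 0 at an unadjusted p below 0.05). The shares of all tested probe sets called higher and lower are those given above for each comparison. For 6pm against 12pm, 0 were higher and 1 lower (1 and 1 unadjusted), for 12am against 6pm 1 and 1, and for 6am against 12am 1 and 3. The 10 had no member among the import channel of the outer envelope or the plastid sigma factors and nuclear regulators. PIFI, a chloroplast protein linked to the NDH-dependent rise of fluorescence after light, had means of 11.48, 12.54, 12.75 and 12.12 at 6am, 12pm, 6pm and 12am, and was higher at 6pm than at 6am by 1.27 (adjusted p = 1.66e-05). FZL, a dynamin-like protein of thylakoid organisation, had means of 6.56, 7.55, 7.41 and 6.82 and was higher at 12pm than at 6am by 0.99 (adjusted p = 0.00512). FTSZ2-1, a protein of the plastid division ring, was higher at 6pm than at 6am by 0.70 (adjusted p = 0.000791). ATPC1, a subunit of the plastid ATP synthase, was higher at 12pm than at 6am by 0.55 (adjusted p = 0.0236) and was not called by the F-test (0.0689), and CURT1A, which curves thylakoid membranes, and SPPA, a thylakoid protease, were called in no comparison. LIL3:1, a relative of the antenna proteins, was higher at 6pm than at 6am by 0.42 (adjusted p = 0.0162) and was not called by the F-test (0.0557).

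Among 7701 tested probe sets naming 1 gene outside the 17, those with the course most like CRR42 over the 12 arrays were AT1G23140, AT3G19400, AT5G02890, AT1G06000 and HTB2, with Pearson coefficients of 0.95 to 0.96. For CRR22 they were AT2G23950, AT1G17665, MENG, AT4G36970 and AT5G66950, at 0.87 to 0.89. These are descriptions over arrays that share 4 times and 3 replicate numbers.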

How the data were processed

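Per the submitters' processing notes, the authors ran GCRMA (R 3.1, affy 1.42.3) and deposited log2 values, 1 per probe set and array. GCRMA corrects background by probe sequence, normalizes between arrays and summarises each probe set, so a shift in total messenger RNA cannot be read. Symbols came from the platform annotation and loci from RefSeq (TAIR10.1), by gene identifier. No sequence table was used here, so the planned promoter search was not run. After leaving out 64 control probe sets and 8561 that did not reach a log2 of 4 on 3 arrays, 14185 entered linear models in limma 3.58.1 under R 4.3.3 (time as a factor, eBayes with 8 residual and 3.44 prior degrees of freedom). F-tests and two-sided tests of 6 differences were each adjusted over the 14185 with Benjamini-Hochberg and called below 0.05, and the code was tested on simulated data. Arrays carry no read depth, and their number limits the precision.

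The members and lists were chosen with earlier results of these data known. Array values are given for up to 3 called genes of widest range per role (1 where none was called) and for the 3 largest called rises and falls per difference. LPA66 was added after its values were seen.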

Additional observations from a re-analysis of the deposited data

How the results depend on the processing

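Of 24 called differences of the 17 genes, 10 kept their call under all 20 alternatives, and of 480 recomputed values of the 24, 386 kept the call, 94 lost it and 0 changed direction. Of 1560 recomputed values of differences that were not called, 46 gained a call. The F-test calls of PSBY, PSBW, PSB27, LPA19, CRR22 and CRR42 were kept under all 19 alternatives. That of CRR28 (adjusted p = 0.0291) was not reached when dim probe sets were kept in (0.0599), nor without 6am array 2 (0.0698) or 3 (0.0615), 12pm array 2 (0.057) or 3 (0.0609), 6pm array 1 (0.0518) or 3 (0.0571) or 12am array 3 (0.062). PSAN gained an F-test call with no filter (0.00347), with a minimum of 6 (0.0494), with a variance trend and robust eBayes together (0.00282) and with the replicate block (0.035). LPA2 gained it with the replicate block (0.0059), with replicates 2 and 3 alone (0.0246) and without 6pm array 1 (0.048) or 2 (0.042). CRR41 gained it with the replicate block (0.0071), with replicates 2 and 3 alone (0.0328) and without 6pm array 1 (0.0441). The block also gained calls of differences between times for PSBW, PSB27, LPA2, CRR28, CRR41 and PGRL1B. Those for LPA2 were 12pm against 6am (limma adjusted p = 0.0268) and 6pm against 12pm (0.0365).

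Leaving out 1 array at a time gave 6 to 9 genes for the F-test, 2 to 4 for 6pm against 6am, 5 to 9 for 12am against 12pm (5 without 12pm array 2 or 12am array 3), 3 to 6 for 12pm against 6am, 0 to 4 for 6pm against 12pm, 0 to 1 for 12am against 6pm and 1 to 3 for 6am against 12am. With only the arrays of both times, 2 genes were called for 6pm against 6am (4 with all 12), 0 for 12am against 6pm (1 with all 12; 3 at an unadjusted p below 0.05 by limma) and 1 for 6am against 12am (3 with all 12). For 6pm against 12pm the count of 2 became 4 with no filter, 5 with a variance trend and robust eBayes together, and 5 with the replicate block. For 12am against 6pm the count of 1 became 2, 3 and 3 in these settings, and 3 with replicates 2 and 3 alone. A variance trend and robust eBayes together gave 5 for 6am against 12am. The cause of these changes was not tested.

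Same-numbered arrays of different times deviated together with correlations of 0.06 to 0.65, over 0.1 in 17 of 18 pairs, and 11 of 12 arrays correlated best with one of their own number, a hint from the data and not the design. With the replicate block the F-test called 11 genes, against 8 without it, and the calls for 6pm against 6am, 12am against 12pm, 12pm against 6am and 6am against 12am were 5, 10, 8 and 4. The share of all tested probe sets called with the block is not given either, so a general shift in calling cannot be told from these counts.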
